A study of Lepidium sativum with 107 samples.

Results

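The genes described here encode the large heat shock chaperones and their regulators, followed through the germination of garden cress (Lepidium sativum FR14). They were chosen by Arabidopsis locus code: HSP101 (AT1G74310), HSP90.1 (AT5G52640), HSP90.2 (AT5G56030), the cytosolic HSP70s HSP70-4 (AT3G12580) and HSP70-1 (AT5G02500), the endoplasmic reticulum HSP70 BIP2 (AT5G42020), and the heat shock factors HSFA2 (AT2G26150) and HSFA9 (AT5G54070). Of these 8 loci, 7 had a row among the 13895 probe sets of the expression table, and BIP2 is not analysed here. The table's rows carry Arabidopsis thaliana locus codes, so each value describes whichever cress transcripts bound the probes of that row. HSP90.2 and HSP70-1 each have near-identical paralogs in Arabidopsis, and their rows may report several cress genes together.

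Seeds were sown in pure water at 24 °C under continuous light and cut into tissues with a scalpel, so every imbibed group shared these conditions and no group received a heat treatment, per the labels. Micropylar endosperm (CAP), the cap that covers the root tip, and radicle with lower hypocotyl (RAD) were sampled at 1, 3, 5, 7, 10, 13 and 16 h. At 7 h both were split into seeds with intact and with ruptured testa, and at 16 h into seeds with intact and with ruptured endosperm, which gave 9 stages per tissue. Non-micropylar endosperm (NME) and cotyledons (COT) were sampled at 3, 7 and 13 h, the 7 h seeds having an intact testa per the sample titles. Dry seeds were taken whole (DRY), as the part with the radicle and the micropylar cap (DRYRC) and as the part with cotyledon and non-micropylar endosperm (DRYNMC). The 27 groups had 4 arrays each, except DRYNMC with 3. Each sample pooled 100 organs (50 for cotyledons), and no label ties replicates to separate cultures. The p-values therefore rest on how far the arrays of a group differ, and some of that may be technical.

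HSP70 and HSP90 are ATP-driven chaperones that hold and fold client proteins, and HSP101 is a ring-shaped disaggregase that pulls proteins out of aggregates together with HSP70. Heat shock factors are the transcription factors that switch such genes on. In Arabidopsis and other seed plants many of these genes are also expressed without heat, during seed maturation, and their products are stored in the dry seed. HSFA9 is a seed-specific factor in Arabidopsis and sunflower, and HSFA2 is a heat-induced factor in Arabidopsis.

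Values are log2 expression after RMA, a normalization that makes arrays comparable and shrinks differences of dim probe sets. They describe each transcript relative to the bulk of all transcripts. Array medians lay between 4.04 and 4.17. A group mean under 3.59, the 25th percentile of group means, was taken as a limit of brightness below which a level is uncertain, and a change that reached such a level is given as a lower bound. In these pooled tissues fewer cells of a type and less RNA per cell cannot be told apart. Changes were tested with limma across all arrays and probe sets, and a change passed where the adjusted p was under 0.05.

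Arrays of a group correlated at r = 0.894 to 0.9898 (median 0.967), and no pair was identical. Cotyledons at 13 h, replicate 2, and cotyledons at 7 h, replicate 4, stood furthest from their groups, with mean correlations of 0.913 and 0.932. The mean of the 3 measured endosperm markers (of 4 listed) lay between 5.07 and 8.35 in arrays of micropylar endosperm, 5.09 and 8.67 in non-micropylar endosperm, 3.51 and 5.31 in radicle and 3.47 and 4.22 in cotyledons. Among them EXPA2 stayed at or under 3.67 in radicle and 3.71 in cotyledons, whereas EPR1 reached a group mean of 4.57 and GASA6 one of 7.11 in radicle. The mean of the 4 measured cotyledon and shoot markers (of 6) lay between 4.21 and 5.29 in cotyledons, 3.26 and 3.89 in micropylar endosperm, 3.31 and 4.45 in non-micropylar endosperm and 3.60 and 4.10 in radicle. FIL was high in cotyledons alone of these tissues (5.10 to 6.48), AS1 reached 7.78 in cotyledons, 6.73 in radicle, 6.12 in non-micropylar endosperm and 5.26 in micropylar endosperm, and YAB5 and YAB3 stayed dim, at or under 2.96 and 3.74 in every imbibed group. The mean of the 6 measured root and root cap markers (of 7) lay between 3.48 and 4.64 in micropylar endosperm and 3.74 and 4.67 in radicle, and these ranges overlapped. PIN2 reached 6.61 in radicle and 4.66 in micropylar endosperm, and SMB, a root cap gene in Arabidopsis, 4.40 in micropylar endosperm and 3.69 in radicle. The part of such neighbouring tissue in the results below was not tested.

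Over the 9 stages 6 of the 7 transcripts varied in micropylar endosperm and 6 in radicle (limma F-test), against 67.7% and 67% of all probe sets, and the exception in both was HSFA9. HSP101, HSP90.1 and HSP90.2 followed an arch, with a maximum in micropylar endosperm at 5 h and low levels at 16 h. HSP101 there had means of 6.22, 7.11, 7.37, 6.06 (intact testa), 4.69 (ruptured testa), 4.21, 4.44, 3.99 (intact endosperm) and 3.78 (ruptured endosperm) over the 9 stages in order. That is a 12-fold range, against 7.82-fold for HSP90.1, 7.69-fold for HSP90.2 and 1.97-fold for HSP70-1. In radicle HSP101 had its highest mean of 6.33 at 5 h and its lowest of 4.31 at 16 h with intact endosperm.

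**Figure D1:**
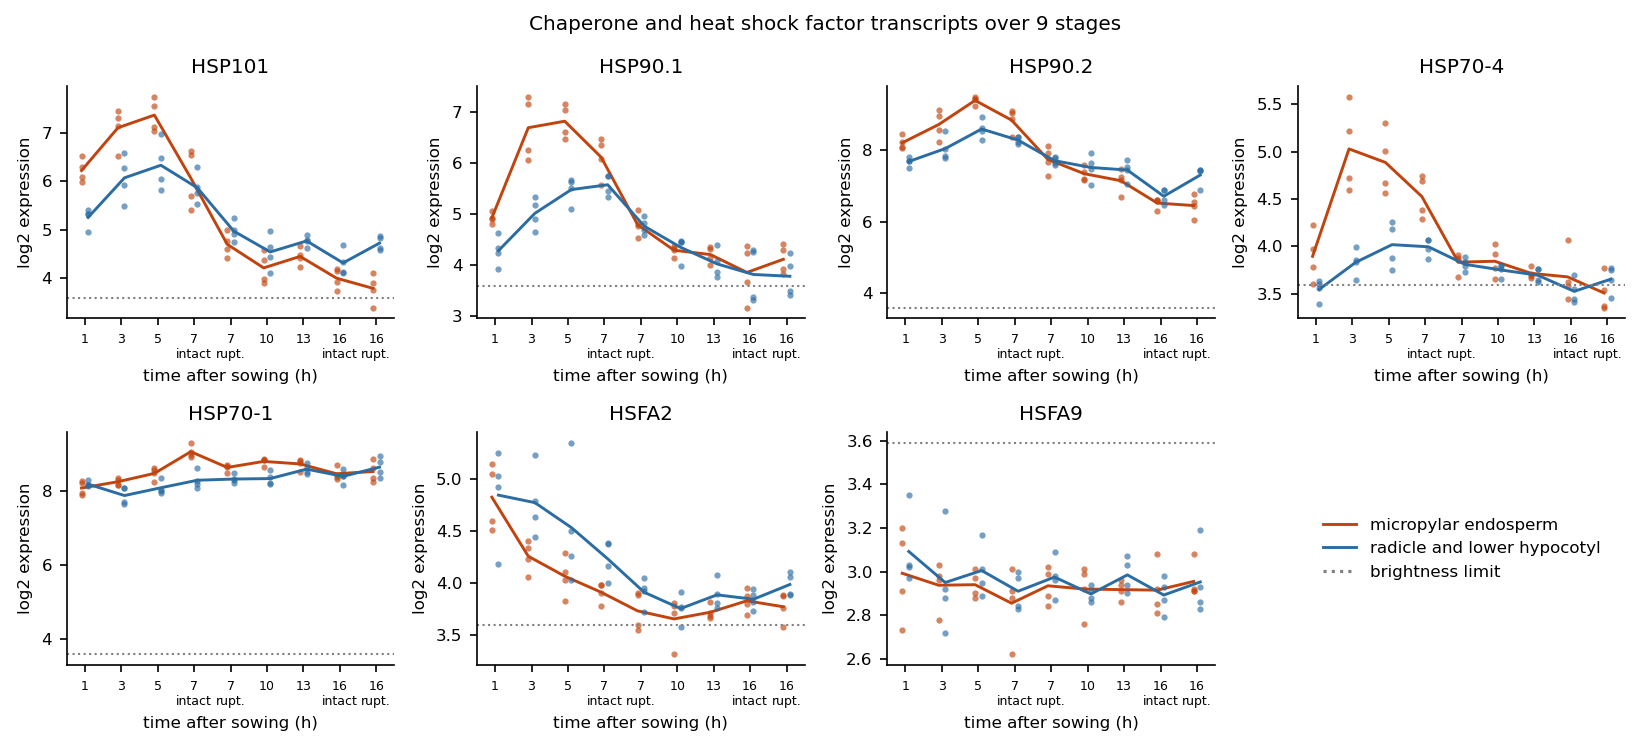
Log2 expression (vertical axis) of the 7 measured transcripts at 9 stages (horizontal axis, hours after sowing; 7 h split by testa rupture, 16 h by endosperm rupture) in micropylar endosperm and radicle with lower hypocotyl. Points are arrays, lines join group means and the dotted line is the brightness limit of 3.59. HSP101 in micropylar endosperm peaks at 7.37 at 5 h and ends at 3.78, while HSP70-1 stays between 8.08 and 9.06 and HSFA9 stays under the limit.

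The first comparison set the earliest imbibed samples against dry tissue. After 1 h, HSFA9 alone of the 7 passed, lower in micropylar endosperm and lower in radicle than in DRYRC, against 8.18% and 2.94% of all probe sets called. HSFA9 was under the brightness limit on both sides, at 2.99 ± 0.21 in micropylar endosperm, 3.09 ± 0.17 in radicle and 3.48 ± 0.34 in DRYRC (SD, n = 4 each), so no fold is given. The radicle call was lost in 5 of 8 fits that left out 1 array (RAD replicates 2, 3 and 4, DRYRC replicates 2 and 3), with changes of -0.52 to -0.28. HSP101 differed from DRYRC by 0.59 ± 0.24 in micropylar endosperm and -0.38 ± 0.24 in radicle (SE; limma adjusted p = 0.114 and 0.479). In micropylar endosperm and radicle, HSP90.1 stood at 0.37 and -0.28, HSP90.2 at 0.40 and -0.12, HSP70-4 at 0.11 and -0.23, HSP70-1 at -0.08 and 0.03, and HSFA2 at 0.19 and 0.21, none passing. DRYRC held radicle and cap together, so these comparisons set 1 tissue against a mixed part.

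HSP101 was already higher in the cap than in the root at that time. Its 1 h values were 5.98, 6.09, 6.52 and 6.29 in micropylar endosperm, against 5.41, 5.32, 4.95 and 5.32 in radicle. The ranges did not overlap and the difference was 0.97 ± 0.24 (SE; limma adjusted p = 0.00286), and it was the 1 of 7 transcripts that passed, a share close to the 12.4% of all probe sets. HSP90.1 and HSP90.2 did not overlap either, at 0.64 ± 0.24 and 0.52 ± 0.21 (limma adjusted p = 0.0597 and 0.0938).

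From 1 h to 5 h HSP101, HSP90.1, HSP90.2 and HSP70-4 rose in both tissues. This comparison was chosen after the values were seen. In micropylar endosperm 5 of 7 rose and 1 fell (33.3% of all probe sets called), and in radicle 4 rose and none fell (34.4% called). HSP90.1, the heat-inducible cytosolic HSP90 of Arabidopsis, had 7.16, 6.61, 6.47 and 7.03 at 5 h in micropylar endosperm, against 4.91, 4.81, 5.06 and 4.92 at 1 h. Every 5 h array lay above every 1 h array, a 3.72-fold increase (log2 1.90 ± 0.24 SE, limma adjusted p = 1.85e-10).

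HSP90.2, a cytosolic HSP90 expressed without heat in Arabidopsis, had 9.42, 9.42, 9.50 and 9.23 at 5 h, against 8.23, 8.05, 8.45 and 8.10 at 1 h, a 2.28-fold increase (adjusted p = 3.29e-06 in limma). HSP101 rose 2.22-fold and HSP70-4, a heat-inducible HSP70 in Arabidopsis, 1.99-fold, both without overlap between the groups. HSP70-1 rose by 0.40 ± 0.15, a call lost in 5 of 8 fits without 1 array (CAP 1 h replicates 1 and 3, CAP 5 h replicates 2, 3 and 4; 0.33 to 0.48). HSFA2 fell by 0.76 ± 0.17 on the log2 scale and HSFA9 differed by -0.05 ± 0.11.

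In radicle the same interval gave 1.08 ± 0.24 for HSP101, 1.20 ± 0.24 for HSP90.1, 0.91 ± 0.21 for HSP90.2 and at least 0.47 ± 0.15 for HSP70-4 (SE), all 4 passing. The HSP70-4 call was lost without replicate 4 of the 5 h radicle, where the change was 0.39. HSP70-1, HSFA2 and HSFA9 did not pass there, at -0.09, -0.32 and -0.09, and HSFA2 passed in 2 of 8 fits without 1 array (RAD 1 h replicate 4 or RAD 5 h replicate 1). None of the 7 increases differed between the tissues by the test of the difference in limma (4.28% of all probe sets called), although 3 had an unadjusted p under 0.05. The largest was 0.70 ± 0.34 for HSP90.1 (limma adjusted p = 0.255).

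By single steps, between 1 h and 3 h in micropylar endosperm HSP90.1 rose by 1.77 ± 0.24, HSP70-4 by 1.14 ± 0.15 and HSP101 by 0.89 ± 0.24, while HSFA2 fell by 0.57 ± 0.17 (SE; 4 of 7 passing, 32.4% of all probe sets called). HSP90.2 stood at 0.51 ± 0.21 in that step (limma adjusted p = 0.0537) and passed with quantile normalization, array weights and only the compared arrays (0.00446, 0.039 and 0.0492). Between 3 h and 5 h the one transcript that passed was HSP90.2, at 0.67 ± 0.21 (6.55% called; limma adjusted p = 0.0367). That call was lost in 6 of 8 fits without 1 array (CAP 3 h replicates 2 and 3 and each CAP 5 h replicate; 0.51 to 0.81). In radicle HSP101 rose by 0.82 ± 0.24 and HSP90.1 by 0.73 ± 0.24 between 1 h and 3 h (2 of 7, 22.8% called), and HSP90.2 stood at 0.36 ± 0.21. Without RAD 3 h replicate 4 (HSP101) or without RAD 1 h replicate 3 or RAD 3 h replicate 2 (HSP90.1) these did not pass, and the changes over all such fits were 0.65 to 1.01 and 0.61 to 0.86. No transcript passed between 3 h and 5 h in radicle with limma (6.43% called), and HSP90.2 (0.55 ± 0.21) was the 1 with an unadjusted p under 0.05.

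The decrease of HSP101 began before the testa broke. In micropylar endosperm at 7 h with intact testa HSP101 had 5.40, 5.70, 6.54 and 6.62, against 7.75, 7.13, 7.55 and 7.04 at 5 h. All 7 h arrays lay below all 5 h arrays (log2 -1.31 ± 0.24, limma adjusted p = 4.61e-05), and 3 of 7 passed where 7.88% of all probe sets did. HSP90.1 fell by 0.71 ± 0.24, a call lost in 4 of 8 fits without 1 array (CAP 5 h replicates 1 and 4, CAP 7 h intact replicates 1 and 2; -0.82 to -0.52). HSP70-1 rose by 0.58 ± 0.15 in the same interval, a call lost without CAP 5 h replicate 1 or CAP 7 h intact replicate 3 (0.50 to 0.63). In radicle none of the 7 passed in limma between 5 h and 7 h (2.53% called) and 0 had an unadjusted p under 0.05, HSP101 standing at -0.47 ± 0.24 (limma adjusted p = 0.372).

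Set against 1 h, 7 h seeds with intact testa had 4 transcripts higher and 1 lower in micropylar endosperm, and likewise 4 and 1 in radicle, where 38.2% and 39.5% of all probe sets passed. In micropylar endosperm HSP90.1 (1.19 ± 0.24), HSP70-1 (0.98 ± 0.15), HSP90.2 (0.64 ± 0.21) and HSP70-4 (0.63 ± 0.15) were higher and HSFA2 lower (-0.92 ± 0.17). HSP101 was back near its 1 h level there, at -0.16 ± 0.24 (95% interval -0.63 to 0.32). In radicle HSP90.1 (1.29 ± 0.24), HSP101 (0.61 ± 0.24), HSP90.2 (0.60 ± 0.21) and HSP70-4 (at least 0.45 ± 0.15) were higher and HSFA2 lower (-0.61 ± 0.17), and HSP70-1 (0.11 ± 0.15) did not pass. HSFA9 differed by -0.14 ± 0.11 in micropylar endosperm and -0.18 ± 0.11 in radicle, not passing. The HSP101 call in radicle was lost without RAD 1 h replicate 3, RAD 7 h intact replicate 1 or replicate 4 (0.47 to 0.72). HSP90.2 did not pass without CAP 7 h intact replicate 3 in micropylar endosperm or without RAD 1 h replicate 4 in radicle, at 0.55 and 0.54, the lowest of such fits.

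HSP70-1 was the 1 transcript of 7 whose change to 7 h differed between the tissues, where 7.64% of all probe sets did. It had 8.92, 8.97, 9.29 and 9.05 at 7 h in micropylar endosperm, against 7.94, 8.28, 7.88 and 8.21 at 1 h, with no overlap. In radicle it had 8.18, 8.26, 8.08 and 8.63 at 7 h, against 8.15, 8.30, 8.16 and 8.12 at 1 h, and the groups overlapped. The difference of the changes was 0.87 ± 0.22 (SE; limma adjusted p = 0.0048), and 0.80 to 0.99 with any 1 array left out. The other 6 differences lay between -0.77 (HSP101) and 0.18 (HSP70-4).

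Seeds of 7 h with ruptured and with intact testa are of 1 age and were sorted by whether the seed coat had split. Such sorting may also separate seeds further on in germination from slower ones, and the groups cannot tell these apart. The same holds for endosperm rupture at 16 h. In micropylar endosperm 4 of 7 transcripts fell with testa rupture and none rose, where 6.33% of all probe sets passed and 2.69% fell. HSP101 had 4.77, 4.60, 5.00 and 4.41 with ruptured testa, against 5.40, 5.70, 6.54 and 6.62 with intact testa. HSP90.1 had 4.81, 4.76, 5.07 and 4.52 with ruptured testa, against 5.56, 6.08, 6.35 and 6.46 with intact testa. For both, all ruptured arrays lay below all intact arrays.

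HSP90.2 had 7.91, 7.66, 8.12 and 7.27 with ruptured testa, against 8.36, 8.86, 9.11 and 9.04 with intact testa, and fell 2.15-fold (limma adjusted p = 0.000127). HSP70-4 had 3.86, 3.88, 3.91 and 3.68 with ruptured testa, against 4.38, 4.74, 4.69 and 4.29 with intact testa, and fell 1.61-fold (limma adjusted p = 0.000714). Neither overlapped between the groups, although the ruptured arrays of HSP70-4 were close to the brightness limit. These 4 calls held in all 8 fits without 1 array. HSP70-1 differed by -0.42 ± 0.15 without overlap (limma adjusted p = 0.0904), and passed with array weights (limma adjusted p = 0.00171) and when only the compared arrays were fitted (0.0315). HSFA2 differed by -0.18 ± 0.17 and HSFA9 by 0.08 ± 0.11.

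In radicle 1 of 7 fell with testa rupture, HSP101, where 1.71% of all probe sets passed. Its values were 4.90, 5.23, 4.74 and 5.00 with ruptured testa, against 5.87, 5.76, 5.53 and 6.29 with intact testa, without overlap (log2 -0.89 ± 0.24, limma adjusted p = 0.0264). The call was lost in 6 of 8 fits without 1 array (ruptured replicates 1, 3 and 4, intact replicates 1, 2 and 4; -1.01 to -0.75). HSP90.1 and HSP90.2 did not overlap between the groups either, at -0.81 ± 0.24 and -0.58 ± 0.21, with limma adjusted p = 0.0554 and 0.173. HSP70-4 (-0.19 ± 0.15), HSP70-1 (0.03 ± 0.15), HSFA2 (-0.33 ± 0.17) and HSFA9 (0.06 ± 0.11) did not pass. The test of the difference between micropylar endosperm and radicle passed for none of the 7 in limma (0.432% of all probe sets called), with values of -0.52 to 0.15, and 2 had an unadjusted p under 0.05, HSP70-4 (-0.50 ± 0.21) and HSP70-1 (-0.46 ± 0.22). For HSP101 the difference of -0.47 had a 95% interval of -1.15 to 0.20.

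**Figure D2:**
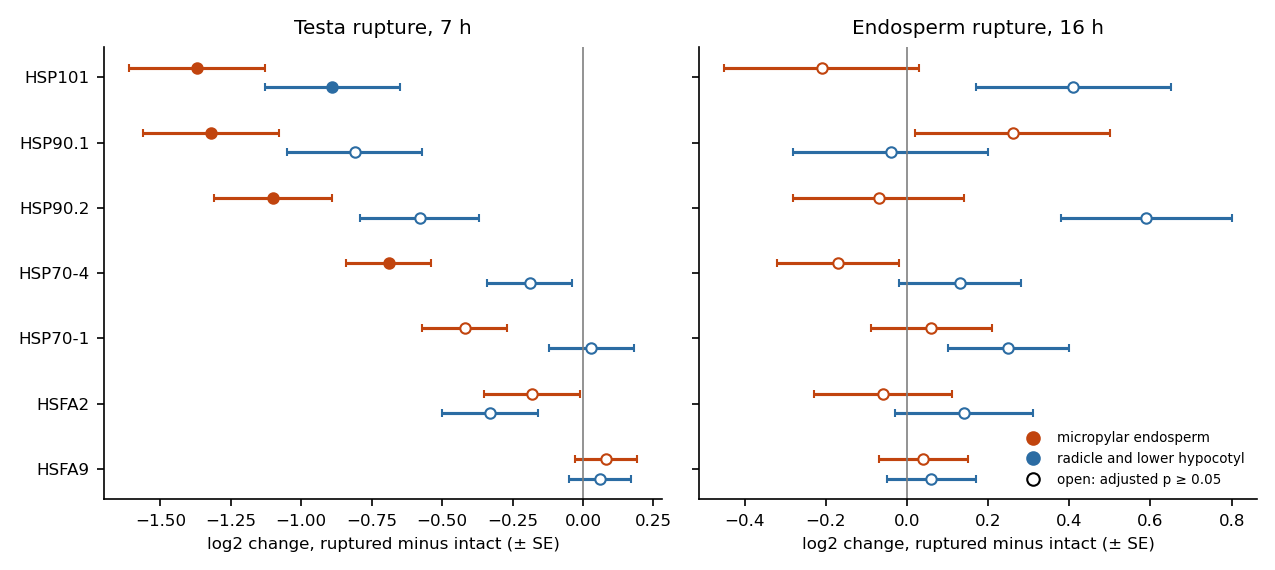
Log2 change with rupture (horizontal axis, ruptured minus intact, bars ± SE) of the 7 transcripts for the testa at 7 h and for the endosperm at 16 h, each in the cap and in the root. Filled points passed at adjusted p under 0.05. At testa rupture HSP101, HSP90.1, HSP90.2 and HSP70-4 in micropylar endosperm and HSP101 in radicle are filled and lie at or below -0.69, and at endosperm rupture no point is filled.

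After testa rupture the decline went on. Seeds of 16 h with intact endosperm, set against 7 h with ruptured testa, had HSP90.2 lower by 1.22 ± 0.21, HSP90.1 by 0.94 ± 0.24 and HSP101 by 0.70 ± 0.24 in micropylar endosperm (3 of 7; 15.9% of all probe sets called). In radicle HSP90.2 was lower by 0.99 ± 0.21 and HSP90.1 by 0.95 ± 0.24 (2 of 7; 11.9% called). HSP101 in micropylar endosperm lost its call in 4 of 8 fits without 1 array (CAP 7 h ruptured replicates 1 and 3, CAP 16 h intact replicates 2 and 4; -0.80 to -0.60). HSP101 in radicle stood at -0.66 ± 0.24 (limma adjusted p = 0.0562) and passed without RAD 16 h intact replicate 3, with quantile normalization (0.0494), with array weights (0.0435) and with only the compared arrays (0.0288). HSP70-4, HSP70-1, HSFA2 and HSFA9 lay between -0.28 and 0.10 in the 2 tissues and did not pass. No single step between neighbouring stages from 7 h with ruptured testa to 16 h with intact endosperm passed for any of the 7 in either tissue, where 3.17%, 0.849% and 1.4% of all probe sets did in micropylar endosperm and 4.17%, 0.331% and 0.95% in radicle. In these 6 limma steps HSP101 and HSP90.1 from 7 h to 10 h in micropylar endosperm, and HSP90.2 from 13 h to 16 h in both tissues, had an unadjusted p under 0.05. With array weights these 4 values, and HSP90.2 from 7 h to 10 h in micropylar endosperm, passed (-0.76 to -0.51).

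Between seeds of 16 h with ruptured and with intact endosperm none of the 7 passed in limma (4.3% of all probe sets called in micropylar endosperm and 5.44% in radicle). At an unadjusted p under 0.05 there were 0 in micropylar endosperm and 1 in radicle, HSP90.2. In radicle HSP90.2 had 7.46, 7.41, 7.45 and 6.90 with ruptured endosperm, against 6.88, 6.60, 6.47 and 6.90 with intact endosperm, so that the groups met at 6.90. The difference was 0.59 ± 0.21 (limma adjusted p = 0.0904) and reached 0.73 and passed without replicate 4 of the ruptured seeds. HSP101 differed by -0.21 ± 0.24 in micropylar endosperm and 0.41 ± 0.24 in radicle, and HSP90.1 by 0.26 ± 0.24 and -0.04 ± 0.24. HSP70-4, HSP70-1, HSFA2 and HSFA9 lay between -0.17 and 0.25. The changes did not differ between the tissues for any of the 7 by limma's test of the difference (2.66% of all probe sets called). HSP90.2, at -0.66 ± 0.30, was the 1 with an unadjusted p under 0.05 (limma adjusted p = 0.358).

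From 5 h to 16 h with ruptured endosperm micropylar endosperm lost more of HSP101, both HSP90s and HSP70-4 than radicle. This comparison was chosen after the values were seen. HSP101 and HSP90.2 had their highest means at 5 h in both tissues. HSP90.1 in radicle was highest at 7 h with intact testa (5.57) and HSP70-4 in micropylar endosperm at 3 h (5.03). HSP101 had 3.89, 3.76, 4.11 and 3.38 at 16 h in micropylar endosperm, against 7.75, 7.13, 7.55 and 7.04 at 5 h, a 12-fold decrease. In radicle it had 4.82, 4.58, 4.87 and 4.61 at 16 h, against 6.48, 6.05, 5.81 and 6.98 at 5 h, a 3.05-fold decrease. In both tissues no 16 h array reached the lowest 5 h array.

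In micropylar endosperm 4 of 7 fell (38.4% of all probe sets called), with HSP90.2 at -2.94 ± 0.21, HSP90.1 at -2.71 ± 0.24 and HSP70-4 down by at least 1.38 ± 0.15. In radicle 5 fell and 1 rose (39% called), with HSP90.1 at -1.70 ± 0.24, HSP90.2 at -1.29 ± 0.21, HSFA2 at -0.55 ± 0.17, HSP70-4 at -0.36 ± 0.15 and HSP70-1 at 0.55 ± 0.15. In micropylar endosperm HSP70-1 (0.05 ± 0.15) and HSFA2 (-0.30 ± 0.17) did not pass, and HSFA9 passed in neither tissue. The radicle calls of HSP70-4 (without RAD 5 h or RAD 16 h ruptured replicate 3 or 4; -0.45 to -0.28) and HSFA2 (without RAD 5 h replicate 1; -0.28) depended on single arrays.

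The test of the difference between the tissues passed for 4 of 7 (19.6% of all probe sets called). The micropylar endosperm change was lower than the radicle change by 1.97 ± 0.34 for HSP101, 1.65 ± 0.30 for HSP90.2, 1.02 ± 0.21 for HSP70-4 and 1.00 ± 0.34 for HSP90.1 (limma adjusted p = 2.61e-06, 9.63e-06, 0.000107 and 0.0228). The HSP90.1 difference was lost in 5 of 16 fits without 1 array (CAP 5 h replicates 1 and 4, RAD 5 h replicate 2, replicate 1 of ruptured CAP and replicate 2 of ruptured RAD at 16 h), with values of -1.13 to -0.86. The difference of HSP70-4 rests on a level under the brightness limit. HSP90.1 in radicle ended close to that limit, at 3.78 with 2 of 4 arrays above it, so its decrease there may be understated. The sizes also depend on the end stage. In radicle at 16 h HSP101 had means of 4.31 with intact and 4.72 with ruptured endosperm, and HSP90.2 6.71 and 7.30. HSP90.1 had 3.81 and 3.78.

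Stage by stage, HSP101, HSP90.1, HSP90.2 and HSP70-4 were higher in the cap than in the root at 3 h and 5 h, and HSP101 and HSP90.2 were lower in it at 16 h with ruptured endosperm. At 3 h 4 of 7 transcripts were higher and 1 lower in micropylar endosperm than in radicle (28.3% of all probe sets called), and at 5 h again 4 and 1 (20.7% called). At 3 h HSP90.1 had 7.16, 6.05, 7.30 and 6.25 in micropylar endosperm, against 4.64, 5.34, 4.90 and 5.17 in radicle, a 3.20-fold difference without overlap. HSP70-4 differed 2.29-fold at 3 h and HSP101 2.05-fold. At 5 h the differences were 1.34 ± 0.24 for HSP90.1, 1.04 ± 0.24 for HSP101, 0.87 ± 0.15 for HSP70-4 and 0.80 ± 0.21 for HSP90.2.

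HSFA2 went the other way, by -0.52 ± 0.17 at 3 h and -0.47 ± 0.17 at 5 h. Its call was lost without CAP replicate 1 or RAD replicate 2 at 3 h (-0.63 to -0.37), and in 5 of 8 fits at 5 h (CAP replicates 2, 3 and 4, RAD replicates 1 and 2; -0.64 to -0.20). The HSP90.2 difference at 3 h, 0.67 ± 0.21, was lost without CAP replicate 1 or RAD replicate 3 (0.54 to 0.84).

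At 7 h with intact testa HSP70-1 (0.77 ± 0.15) and HSP70-4 (0.53 ± 0.15) were higher in micropylar endosperm (2 of 7; 19.5% of all probe sets called), HSP70-1 not having passed at 3 h (0.37 ± 0.15) or 5 h (0.39 ± 0.15). HSP90.2 (0.56 ± 0.21) and HSP90.1 (0.54 ± 0.24) did not pass (limma adjusted p = 0.0503 and 0.101). HSP90.2 passed without dim probe sets, with quantile normalization, with array weights and with only the compared arrays (0.0475, 0.0157, 0.00178 and 0.0263), and HSP90.1 with array weights (0.00852). With ruptured testa none of the 7 passed in limma (25.7% called), HSP101 stood at -0.28 ± 0.24, and HSP70-1 (0.31 ± 0.15) was the 1 with an unadjusted p under 0.05. HSP70-1 was higher by 0.46 ± 0.15 at 10 h (1 of 7; 26.7% called), a call lost without RAD replicate 1 or 4, and none passed in limma at 13 h or at 16 h with intact endosperm (27.7% and 28% called), with 0 at an unadjusted p under 0.05 in both. At 16 h with ruptured endosperm HSP101 and HSP90.2 were lower in micropylar endosperm, by 0.94 ± 0.24 and 0.85 ± 0.21 (2 of 7; 36.1% called). Averaged over the 9 stages, HSP90.1 (0.53 ± 0.08), HSP70-4 (0.34 ± 0.05, with levels under the brightness limit in some stages of both tissues) and HSP70-1 (0.25 ± 0.05) were higher in micropylar endosperm and HSFA2 (-0.22 ± 0.06) lower, a share of 4 of 7 close to the 65.8% of all probe sets called. In that average HSP101 differed by 0.12 ± 0.08, HSP90.2 by 0.12 ± 0.07 and HSFA9 by -0.03 ± 0.04, so the early and late differences of HSP101 and HSP90.2 had opposite signs.

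**Figure D3:**
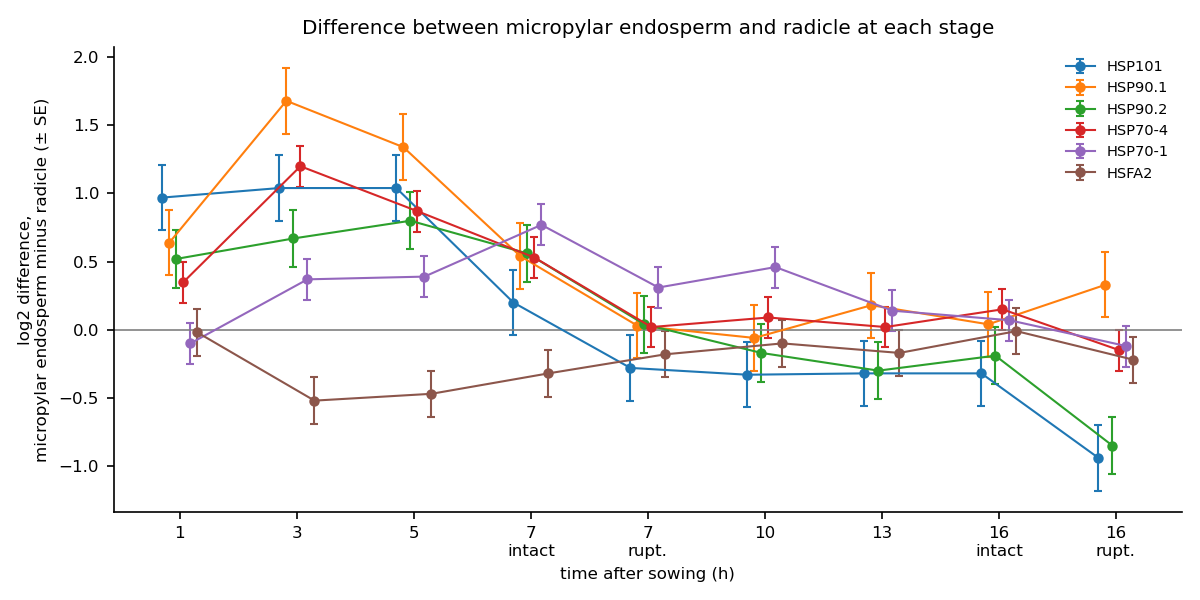
Log2 difference between micropylar endosperm and radicle (vertical axis, ± SE) at each of the 9 stages (horizontal axis, hours after sowing) for the 6 transcripts above the brightness limit in most groups. HSP90.1 stands at 1.68 at 3 h and 1.34 at 5 h, all but HSP70-1 lie between -0.33 and 0.18 from testa rupture to 16 h with intact endosperm, and HSP101 and HSP90.2 end at -0.94 and -0.85.

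Non-micropylar endosperm was set against DRYNMC, which also held cotyledon, so a change over time and a difference between tissues cannot be told apart. In non-micropylar endosperm at 3 h 5 of 7 transcripts were higher than in DRYNMC, where 38.3% of all probe sets passed and 16.7% were higher. HSP90.1 had 6.57, 6.90, 6.44 and 6.74 in non-micropylar endosperm at 3 h, against 4.54, 4.94 and 5.01 in DRYNMC, a 3.57-fold difference without overlap (limma adjusted p = 3.94e-09). HSP101 was 2.67-fold, HSP70-4 2.11-fold, HSP90.2 2.05-fold and HSP70-1 1.43-fold higher, and HSFA2 (0.04 ± 0.18) and HSFA9 (-0.19 ± 0.12) did not pass. The HSP70-1 call was lost without DRYNMC replicate 1 (changes 0.45 to 0.58 over such fits).

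In cotyledons at 3 h, 1 of 7 was higher than in the same dry part, HSP101 (15.9% of all probe sets called). It had 6.67, 6.74, 6.55 and 5.84 in cotyledons at 3 h, against 5.44, 5.53 and 6.27 in DRYNMC, and the groups overlapped (0.71 ± 0.26, limma adjusted p = 0.048). The call was lost in 5 of 7 fits without 1 array (COT 3 h replicates 1, 2 and 3, DRYNMC replicates 1 and 3; 0.55 to 0.97). HSP90.1 differed by 0.65 ± 0.26 (limma adjusted p = 0.0708) without overlap, and the other 5 lay between -0.26 and 0.21. Both comparisons used the same dry samples, which mixed the tissues.

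Non-micropylar endosperm exceeded cotyledons for 5 of 7 transcripts in the mean of 3, 7 and 13 h, where 44.7% of all probe sets passed and 21% were higher. The differences were 0.94 ± 0.09 for HSP70-1, 0.89 ± 0.09 for HSP70-4, 0.76 ± 0.14 for HSP90.1, 0.65 ± 0.12 for HSP90.2 and 0.58 ± 0.14 for HSP101, while HSFA2 (-0.13 ± 0.10) and HSFA9 (-0.02 ± 0.06) did not pass. Split by time, a comparison chosen after the values were seen, the same 5 were higher at 3 h (27% of all probe sets called) and at 7 h (32.6%), and HSP70-1 was the only one at 13 h (24.8%; 0.95 ± 0.15). At 3 h the calls of HSP101 (without COT replicate 4 or NME replicate 1) and HSP70-1 (without COT replicate 1 or 4, or NME replicate 4) depended on single arrays, with differences of 0.51 to 0.81 and 0.39 to 0.46. HSP70-4 had 5.09, 5.23, 5.12 and 5.60 in non-micropylar endosperm at 7 h, against 4.06, 3.81, 3.84 and 4.14 in cotyledons, far apart, and 3.75, 4.04, 3.83 and 4.09 against 4.09, 3.19, 3.86 and 3.85 at 13 h, overlapping.

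Between 3 h and 13 h HSP101 and both HSP90s fell and HSP70-1 rose in both tissues. In non-micropylar endosperm 5 fell and 1 rose (39.3% of all probe sets called), and in cotyledons 4 fell and 1 rose (25.4% called). HSP101 had 4.56, 4.58, 4.15 and 3.96 at 13 h in non-micropylar endosperm, against 7.34, 7.19, 7.02 and 7.09 at 3 h, a 7.20-fold decrease. In cotyledons it had 4.61, 4.20, 4.44 and 3.93 at 13 h, against 6.67, 6.74, 6.55 and 5.84 at 3 h, a 4.45-fold decrease. Neither pair of groups overlapped.

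HSP90.1 fell 4.66-fold in non-micropylar endosperm and 2.09-fold in cotyledons, HSP90.2 3.62-fold and 1.91-fold, and HSFA2 1.81-fold and 1.75-fold. HSP70-4 fell 2.26-fold in non-micropylar endosperm and stood at -0.16 ± 0.15 in cotyledons. HSP70-1 rose by 1.04 ± 0.15 in non-micropylar endosperm and by 0.53 ± 0.15 in cotyledons, the call in cotyledons being lost without cotyledon 13 h replicate 1 or 3 (0.36 to 0.83). Cotyledons at 13 h, replicate 2, which stood apart from its group, held the lowest values there of HSP70-1 (6.85), HSP90.2 (6.19), HSP90.1 (3.89) and HSP70-4 (3.19). HSFA9 did not pass in either tissue.

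Tested directly, a choice made after the values were seen, the decrease was larger in non-micropylar endosperm than in cotyledons for 3 of 7 (15.6% of all probe sets called). The differences were -1.15 ± 0.34 for HSP90.1, -1.01 ± 0.21 for HSP70-4 and -0.92 ± 0.30 for HSP90.2, and -0.69 ± 0.34 for HSP101 did not pass (limma adjusted p = 0.168). The HSP90.2 difference was lost in 6 of 16 fits without 1 array (COT 3 h replicate 4, NME 3 h replicates 1 and 2, COT 13 h replicates 1 and 3, NME 13 h replicate 1; -1.25 to -0.71). By single steps, between 3 h and 7 h in non-micropylar endosperm HSP70-1 rose 2.40-fold and HSFA2 fell 1.79-fold (31.9% of all probe sets called), with HSP101 at -0.34 ± 0.24. Between 7 h and 13 h HSP101 (-2.51 ± 0.24), HSP90.2 (-2.23 ± 0.21), HSP90.1 (-2.08 ± 0.24) and HSP70-4 (-1.33 ± 0.15) fell (22.1% called). In cotyledons HSFA2 fell between 3 h and 7 h (-0.68 ± 0.17; 13.6% called) while HSP101 stood at -0.64 ± 0.24 and passed without replicate 4 at 3 h or at 7 h, and HSP101 (-1.52 ± 0.24), HSP90.1 (-1.06 ± 0.24) and HSP90.2 (-0.93 ± 0.21) fell between 7 h and 13 h (17.2% called). Cotyledons at 7 h, replicate 4, were the highest of their group for HSP101 (6.82), HSP90.1 (6.51) and HSP90.2 (8.86), and these 3 still fell without that array (-1.18, -0.72 and -0.68).

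**Figure D4:**
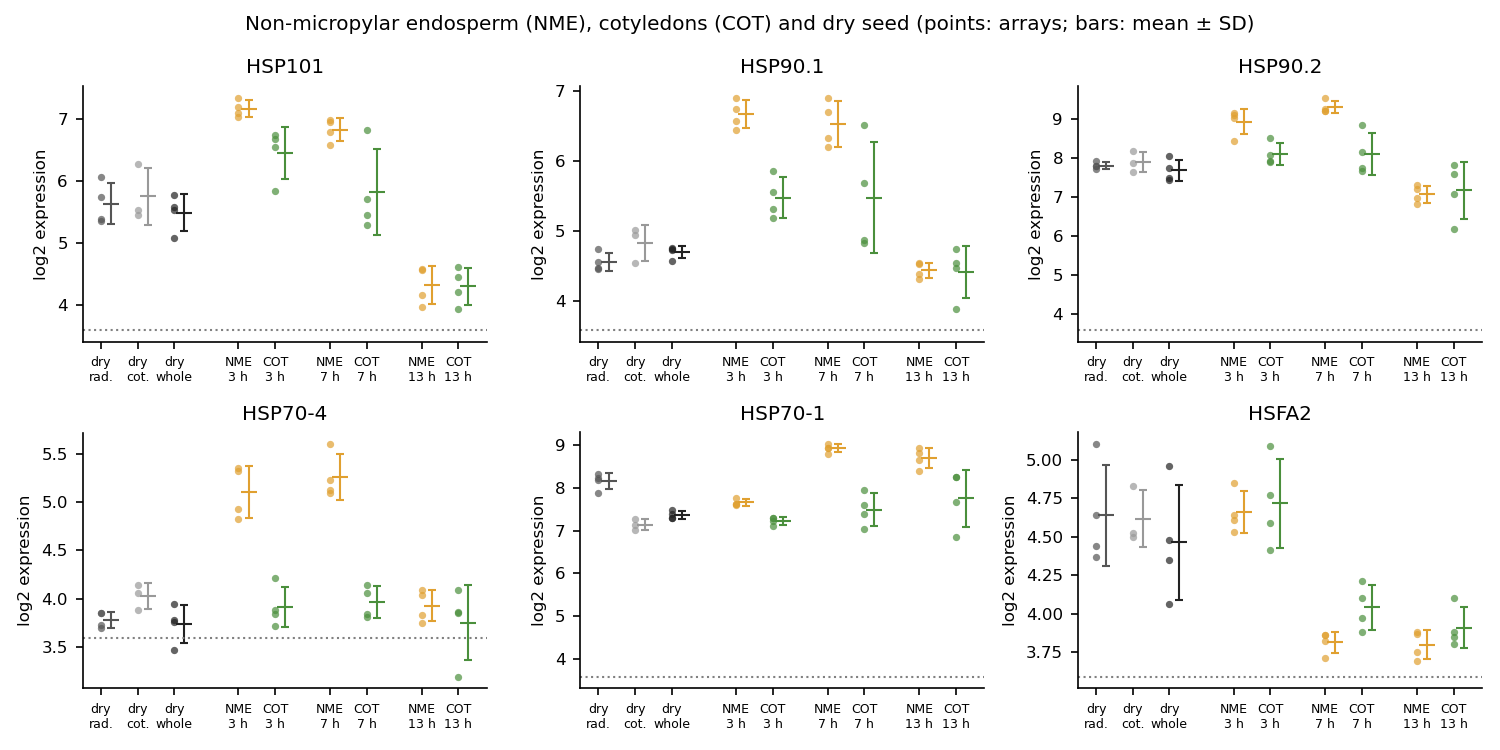
Log2 expression (vertical axis) of 6 transcripts in dry seed parts and whole dry seed and in non-micropylar endosperm (NME) and cotyledons (COT) at 3, 7 and 13 h. Points are arrays, bars are mean ± SD and the dotted line is the brightness limit of 3.59. HSP101 falls to 4.31 in non-micropylar endosperm and 4.30 in cotyledons at 13 h, whereas HSP70-1 stays at 8.70 in non-micropylar endosperm at 13 h, against 7.75 in cotyledons.

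HSP70-1, the main constitutive cytosolic HSP70 of Arabidopsis, already differed between the parts of dry seed, each of which mixed embryo and endosperm. It had 7.89, 8.33, 8.19 and 8.22 in DRYRC, against 7.02, 7.28 and 7.13 in DRYNMC. The ranges did not overlap and the difference was 1.01 ± 0.17 (SE; limma adjusted p = 3.68e-06), as 1 of 7 transcripts passed where 9.64% of all probe sets did. The other 6 differed between the dry parts by -0.27 to 0.29. In the mean of 3, 7 and 13 h HSP70-1 was also the 1 of 7 that was higher in radicle than in cotyledons, by 0.76 ± 0.09 where 36.8% of all probe sets passed, and the other 6 lay between -0.25 and 0.13. Its highest group was micropylar endosperm at 7 h with intact testa (9.06 ± 0.16) and its lowest DRYNMC (7.14 ± 0.13), a 3.77-fold range.

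Between micropylar and non-micropylar endosperm 2 of 7 passed in the mean of their 3 shared stages (13.6% of all probe sets called). HSP70-1 was higher (0.25 ± 0.09) and HSP70-4 lower (-0.34 ± 0.09) in the micropylar part. HSP101, HSP90.1 and HSP90.2 differed by -0.23, -0.21 and -0.21, HSFA2 by -0.13 and HSFA9 by -0.02, none passing. The HSP70-1 call was lost in 12 of 20 fits without 1 array, with differences of 0.22 to 0.28: CAP and NME 3 h replicates 1 and 2, NME 3 h replicate 3, CAP 7 h replicates 3 and 4, CAP 13 h replicates 1, 2 and 3, and NME 13 h replicates 3 and 4. Single stages were not tested, and some lay further apart. At 7 h with intact testa HSP101 had means of 6.06 in micropylar and 6.82 in non-micropylar endosperm, and HSP70-4 4.52 and 5.26. HSP70-1 had 8.25 and 7.66 at 3 h, whereas HSP101 had 4.44 and 4.31 at 13 h.

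HSFA2 was highest in dry and early seeds. Its highest mean was 4.85 ± 0.46 in radicle at 1 h and its lowest 3.65 ± 0.23 in micropylar endosperm at 10 h (SD, n = 4 each), a 2.29-fold range. At 1 h in micropylar endosperm it had 5.15, 4.51, 5.05 and 4.60, which overlapped the 5.10, 4.64, 4.37 and 4.44 of DRYRC. In micropylar endosperm HSFA2 fell from 1 h to 5 h, and in radicle it did not pass (-0.32 ± 0.17, limma adjusted p = 0.138). Its means in micropylar endosperm were 4.83 at 1 h, 4.26 at 3 h and 4.07 at 5 h while HSP101 and both HSP90s stood higher at each of these times than at the one before. Not all of these steps passed. Between 3 h and 5 h HSFA2 (-0.19), HSP101 (0.26) and HSP90.1 (0.13) did not, nor did HSP90.2 between 1 h and 3 h (0.51). HSFA9 stayed under the brightness limit in all 27 groups, between 2.82 and 3.48, with its 3 highest means in the 3 dry groups.

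Neighbouring groups in the order of levels mostly overlapped between arrays. Ordering by mean sets close groups side by side, and the share of overlapping pairs over all probe sets was not computed. Ordered from the highest to the lowest of the 27 means, all 26 neighbouring pairs overlapped between arrays for HSP101, HSP90.1, HSP70-1, HSFA2 and HSFA9. For HSP90.2 the gap between non-micropylar endosperm at 7 h (9.31 ± 0.16) and at 3 h (8.93 ± 0.33) was clear of overlap. This difference of 0.38 did not pass, however (limma adjusted p = 0.175). For HSP70-4 the gap below micropylar endosperm at 7 h with intact testa (4.52 ± 0.22) was clear, with DRYNMC next (4.02 ± 0.13). The 5 groups above that gap were all endosperm, of 3 h, 5 h and 7 h.

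HSP101, HSP90.1 and HSP90.2 had alike profiles over the 27 group means, with Pearson r of 0.90 to 0.94. HSP70-4 followed HSP90.1 (r = 0.92) more closely than HSP101 (r = 0.79). HSP70-1 did not follow HSP101 (r = -0.30) and ran against HSFA2 (r = -0.67), and HSFA2 and HSP101 had r = 0.58. These are descriptions over groups that share tissue, stage and normalization. Among 3412 probe sets with enough spread, the 3 profiles most like HSP101 were HSP90.2 (r = 0.94), FES1A (r = 0.93), a nucleotide exchange factor for HSP70 in Arabidopsis, and a probe set outside the lists (r = 0.92). Those most like HSP90.2 were HSP101 (r = 0.94), HSP70-5 (r = 0.93) and HSP90.1 (r = 0.93). The 3 profiles nearest to each of HSP90.1, HSP70-4, HSP70-1, HSFA2 and HSFA9 (r = 0.81 to 0.95) held no member and no gene of the chaperone lists.

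Other genes of the chaperone network were counted from lists of Arabidopsis loci, without the transcripts above. At testa rupture in micropylar endosperm 6 of 12 measured cytosolic co-chaperones fell and none rose (median -0.53, against 0.00 over all probe sets, of which 6.33% were called and 2.69% fell). FES1A (-0.91 ± 0.19), HOP1 (-0.86 ± 0.18), which links HSP70 to HSP90, and HSA32 (-0.75 ± 0.20), a thermotolerance protein, were among them. Of 13 small heat shock proteins, which bind unfolding proteins without ATP, 5 fell and none rose (median -0.57), led by HSP17.6C (-1.99 ± 0.39) and HSP17.4 (-1.95 ± 0.23). Of 9 other HSP70s 4 fell, with HSP70-5 at -1.08 ± 0.19, and 1 rose (median -0.67).

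In radicle at testa rupture 5 of 12 co-chaperones fell (median -0.39), with FES1A at -1.23 ± 0.19, and 9 of 13 small heat shock proteins fell (median -0.96), with HSP17.6C at -2.68 ± 0.39, where 1.71% of all probe sets were called. None of the 9 other HSP70s passed there in limma (median -0.34; 4 at an unadjusted p under 0.05). Of 13 other heat shock factors none passed in either tissue (medians -0.01 in micropylar endosperm and -0.02 in radicle; 0 and 2 at an unadjusted p under 0.05). Before testa rupture, from 1 h to 7 h with intact testa 1 of the 13 small heat shock proteins rose and 4 fell in micropylar endosperm (median -0.19), and 10 rose and none fell in radicle (median 0.74). Of all probe sets 38.2% and 39.5% were called in these comparisons, so the share in micropylar endosperm was close to that of all probe sets. The difference of these changes passed for 7 of 13, all lower in micropylar endosperm, where 7.64% of all probe sets were called, among them HSP23.6 (-2.28 ± 0.29), HSP17.6C (-2.14 ± 0.55) and HSP17.4 (-1.84 ± 0.33). It also passed for 4 of 12 co-chaperones, all lower in micropylar endosperm, with HSA32 at -1.89 ± 0.28 and FES1A at -1.21 ± 0.26.

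Most of the listed folding genes of the endoplasmic reticulum were higher at 16 h than at 5 h. From 5 h to 16 h with ruptured endosperm 7 of 9 measured genes rose and 2 fell in micropylar endosperm, and likewise 7 and 2 in radicle (medians 3.31 and 2.87), where 38.4% and 39% of all probe sets were called. HSP90.7, the endoplasmic reticulum HSP90 of Arabidopsis, had means of 4.97, 3.29, 4.16, 5.82 (intact testa), 7.04 (ruptured testa), 8.11, 7.66, 7.68 (intact endosperm) and 7.70 (ruptured endosperm) over the 9 stages in micropylar endosperm. HSP90.7 was 1.22 ± 0.22 higher with ruptured than with intact testa there, while HSP90.1 and HSP90.2 were lower. Of the 9 genes 5 rose at testa rupture in micropylar endosperm and none fell (median 1.22; 6.33% of all probe sets called), among them the lectin chaperones CRT2 (1.57 ± 0.27) and CNX1 (1.22 ± 0.22), and none passed in radicle in limma (median 0.47; 1.71% called; 5 of the 9 at an unadjusted p under 0.05). In the comparison of 16 h with 5 h HSP90.7 rose by 3.54 ± 0.22 in micropylar endosperm and 3.89 ± 0.22 in radicle, and HSP70-17, an endoplasmic reticulum member of the HSP70 family in Arabidopsis, by 3.22 ± 0.33 and 3.06 ± 0.33.

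**Figure D5:**
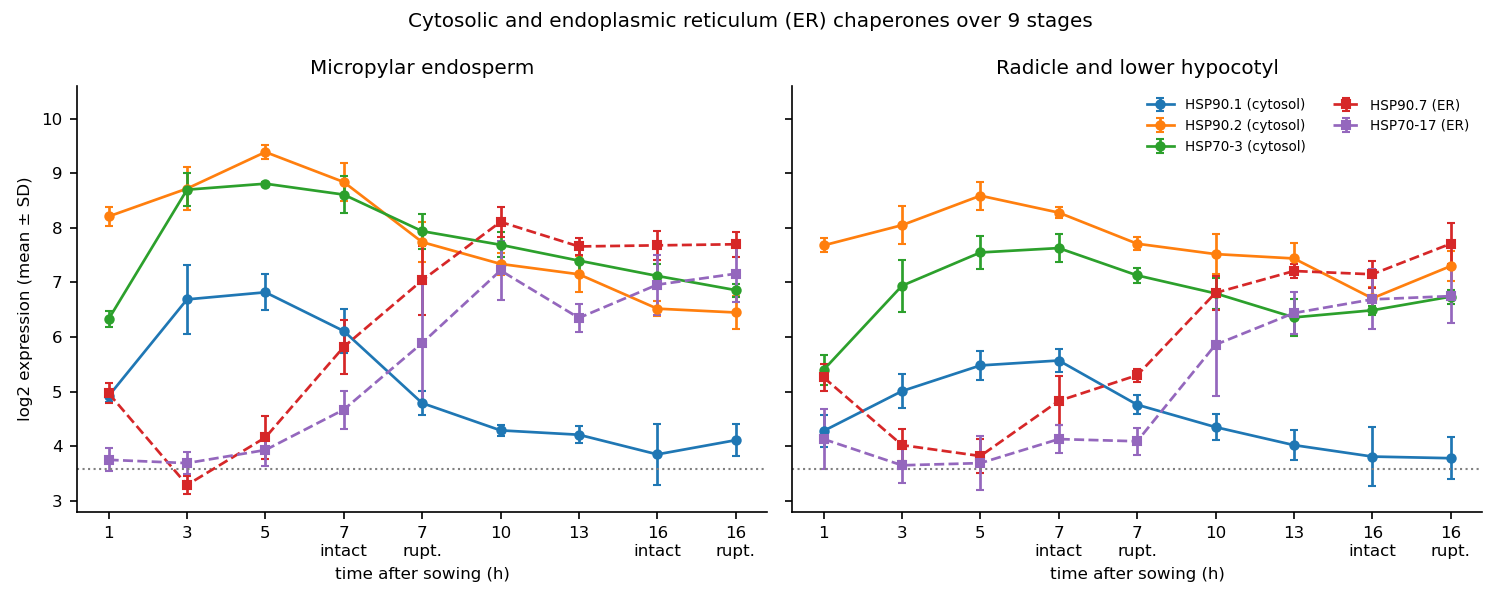
Log2 expression (vertical axis, mean ± SD, 4 arrays each) over 9 stages (horizontal axis, hours after sowing) in micropylar endosperm and radicle for cytosolic chaperones (solid lines) and endoplasmic reticulum chaperones (dashed lines), with the brightness limit of 3.59 dotted. Levels of different probe sets are not comparable with each other. HSP90.1 and HSP90.2 are lower at 16 h than at 5 h, while HSP90.7 and HSP70-17 are higher. Not every cytosolic chaperone falls. From 5 h to 16 h with ruptured endosperm the cytosolic HSP70-1 changes by 0.05 in micropylar endosperm, not passing, and rises by 0.55 in radicle.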

How the data were processed

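RNA (100 ng) was biotin-labelled with a kit that starts at the 3′ end and hybridised to arrays, per the labels. The deposited values are log2 expression that the authors computed with RMA in affy, per the submitters' processing notes, which give no versions. The table held 13895 probe sets, and all arrays of the 27 groups were used. RMA forces alike distributions on all arrays, so a change is relative to the bulk of transcripts, and no detection call was used. The number of arrays limits the precision.

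From these values limma 3.58.1 in R 4.3.3 fitted 1 mean per group over all 27 groups (80 residual and 6.04 prior degrees of freedom), tested each contrast with the moderated statistic, and tested change over the 9 stages of a tissue with the moderated F. P-values were adjusted by Benjamini-Hochberg over all 13895 probe sets, with a threshold of 0.05. Adjusted p-values and standard errors in the text come from this limma fit, and SD refers to arrays of a group. The code was tested on simulated data.

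The measured members are given in every main comparison, some that did not pass as a range. From each list up to 4 further genes that passed are named, by size of change, and profiles were compared among probe sets whose group means had an SD of at least 0.5. Gene symbols were assigned by locus code and are those of Arabidopsis, since the table holds locus codes alone. The members and lists, 118 loci of which 88 had a probe set, were chosen with earlier results of these data known. Replicate numbers did not pair the samples. Alternatives were an intensity trend, leaving out dim probe sets, centring, quantile normalization, array weights, a replicate block, fitting only the compared arrays, and leaving out single arrays. No sequence was used here.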

Additional observations from a re-analysis of the deposited data

Results flagged for a closer look

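The changes of some transcripts differed between tissues by the test of the difference. From 5 h to 16 h with ruptured endosperm the change in micropylar endosperm minus that in radicle was -1.97 for HSP101, -1.65 for HSP90.2, -1.02 for HSP70-4 and -1.0 for HSP90.1. That of HSP90.1 was lost in 5 of 16 fits without 1 array, and HSP90.1 in radicle ended close to the brightness limit. From 3 h to 13 h the change in non-micropylar endosperm minus that in cotyledons was -1.15 for HSP90.1, -1.01 for HSP70-4 and -0.92 for HSP90.2. That of HSP90.2 was lost in 6 of 16 such fits. Both comparisons were chosen after the values were seen. From 1 h to 7 h with intact testa the change of HSP70-1 in micropylar endosperm minus that in radicle was 0.87.

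In 9 of 182 groups of 4 arrays 1 array lay apart from the other 3, and chance alone gives such a gap in about 1 of 20 groups. HSP90.1 was low at 3.99 in replicate 2 of radicle at 10 h and at 4.57 in replicate 3 of whole dry seed. HSP90.2 was high at 9.55 in replicate 4 of non-micropylar endosperm at 7 h, and low at 6.31 in replicate 3 of micropylar endosperm at 16 h with intact endosperm and at 6.90 in replicate 4 of radicle at 16 h with ruptured endosperm. HSP70-1 was high at 7.77 in replicate 4 of non-micropylar endosperm at 3 h and at 8.36 in replicate 4 of radicle at 5 h. HSFA9 was high, though under the brightness limit, at 3.35 in replicate 1 of radicle at 1 h and at 3.08 in replicate 3 of micropylar endosperm at 16 h with ruptured endosperm.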

How the results depend on the processing

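No value of the 7 transcripts in a main comparison turned its sign past the threshold under any of 7 alternatives. Of the 53 calls in those comparisons, 53 were kept with an intensity trend, 51 of 51 with dim probe sets left out, 52 with centring on brighter probe sets, 52 with quantile normalization, 50 with array weights, 53 with the replicate block and 48 when only the compared arrays were fitted. The count at 1 h in micropylar endosperm was 1, HSFA9, and became 0 without dim probe sets and with only the compared arrays. At 1 h in radicle the count was 1, again HSFA9, and became 0 under these settings and with array weights. Leaving out dim probe sets took out HSFA9 itself, so that setting did not test it again. At 3 h in cotyledons against dry seed it was 1 and became 0 with centring, quantile normalization, array weights and only the compared arrays. At testa rupture in radicle it was 1 and became 2 with array weights, 2 with the replicate block, which added HSP90.1 (adjusted p = 0.0475), and 3 with only the compared arrays. At endosperm rupture in radicle it was 0 and became 1 with array weights. In cotyledons from 3 h to 13 h it was 5 and became 3 with only the compared arrays, without HSP90.2 and HSP70-1. HSP101 in radicle before testa rupture lost its call with array weights (adjusted p = 0.0804). In the step, stage and later-chosen comparisons, fitting only the compared arrays, which leaves fewer samples, ended these calls: HSP90.1 in micropylar endosperm from 5 h to 7 h (adjusted p = 0.0582), HSP90.2 and HSFA2 between micropylar endosperm and radicle at 3 h (0.0539 and 0.0513), HSFA2 between them at 5 h (0.202), HSP70-4 and HSFA2 in the decrease in radicle (0.0573 and 0.0921), HSP90.2 in the difference of the late decrease (0.166), HSP70-1 between non-micropylar endosperm and cotyledons at 13 h (0.0603), and HSP90.1 and HSP90.2 in cotyledons from 7 h to 13 h (0.143 and 0.213). The same setting added calls for HSP90.2 in micropylar endosperm from 1 h to 3 h and from 5 h to 7 h, for HSP90.1 and HSP90.2 between the main tissues at 1 h, for HSP90.2 between them at 7 h with intact testa, for HSP70-1 between them at 5 h and at 7 h with ruptured testa, and for HSP101 in non-micropylar endosperm from 3 h to 7 h (adjusted p between 0.0263 and 0.0493). Centring ended the calls of HSP90.1 in micropylar endosperm from 5 h to 7 h (adjusted p = 0.0508) and of HSP70-4 in the decrease in radicle (0.0813), quantile normalization that of HSP90.2 in micropylar endosperm from 3 h to 5 h (0.0954), and array weights that of HSP101 between non-micropylar endosperm and cotyledons at 3 h (0.052). The cause of these changes was not tested. The block changed no other call. Same-numbered samples did not deviate together: in 0 of 15 comparisons were all correlations over 0.1 (-0.30 to 0.36), and 16 of 57 pairs correlated best with their own number.

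In 99 fits without 1 array, counts ranged from 0 to 1 for 1 h in radicle, 3 h in cotyledons, testa rupture in radicle and endosperm rupture in radicle. They ranged from 1 to 2 for the dry parts and for micropylar against non-micropylar endosperm, and from 2 to 3 between the ruptures in both tissues. The range was 4 to 5 for 3 h in non-micropylar endosperm, 1 h to 7 h in both main tissues and 3 h to 13 h in cotyledons. Arrays of whole dry seed and of non-micropylar endosperm at 7 h were not left out, to keep the number of fits within bounds, and the cotyledon 7 h arrays were added after seeing the data. Over all comparisons 27 of 127 calls were lost in at least 1 such fit, and 17 of 272 values that did not pass gained one.

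Among all probe sets, array weights changed the number called from 408 to 122 at 1 h in radicle, from 880 to 2328 and from 237 to 637 at testa rupture in micropylar endosperm and radicle, from 2212 to 3414 between the ruptures in micropylar endosperm, from 756 to 1403 at endosperm rupture in radicle and from 60 to 191 for the tissue difference at testa rupture. With only the compared arrays these were 20 at 1 h in radicle, 1454 between the ruptures in micropylar endosperm and 266 at endosperm rupture in radicle. The same setting gave 887 for 2206 at 3 h in cotyledons, 623 for 1340 between the dry parts, 30 for 598 at endosperm rupture in micropylar endosperm, 1793 for 3529 in late cotyledons and 41 for 370 for the tissue difference at endosperm rupture. Without single arrays the number was as low as 737 for 1136 at 1 h in micropylar endosperm (CAP replicate 4), 259 for 408 at 1 h in radicle (RAD replicate 3), 464 for 880 at testa rupture in micropylar endosperm (ruptured replicate 4), 111 for 237 in radicle (intact replicate 2), 34 for 60 for their difference (ruptured CAP replicate 4) and 351 for 598 at endosperm rupture in micropylar endosperm (ruptured replicate 4). In radicle at endosperm rupture it was 502 without intact replicate 2 and 1148 without intact replicate 1, against 756. Levels near or under the brightness limit, those of HSFA9 and of HSP70-4 outside early endosperm, limit what can be said of their changes. The same holds for some late groups of other transcripts. In radicle at 16 h HSP90.1 had 2 of 4 arrays above the limit, both with intact and with ruptured endosperm. In micropylar endosperm HSP101 (16 h, ruptured endosperm), HSP90.1 (16 h, intact endosperm) and HSFA2 (10 h) had 3 of 4 above it.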
